A study of Mus musculus with 12 samples.

Results

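The genes described here are the members of 8 families of developmental transcription factors outside the Hox clusters, measured for 5-hydroxymethylcytosine (5hmC) in mouse embryonic stem cells (ESC), heart and liver. Members were taken by name: a symbol that begins with a family name (Pax for paired box, Lhx for LIM homeobox, Nkx for NK homeobox, Dlx for distal-less, Irx for iroquois, Fox for forkhead box, Sox for SRY-related, and the Six-family prefix of the sine oculis homeobox genes) and holds a digit. The rule found 89 names among 13581 genes. Of these, 83 are transcription factors of the families: 25 Fox, 14 Sox, 11 Nkx, 8 Pax, 8 Lhx, 6 Dlx, 6 Irx and 5 Six-family genes. The other 6 share only the name, namely the noncoding transcripts Dlx1as, Foxl2os, Pax6os1 and Six3os1 and the coding genes Paxip1 and Foxred2. A promoter value was present for 88 members (Sox1 was listed without coordinates). Gene bodies were read for the 87 members whose body was 500 bp or longer. Nkx2-5, at 902 bp, was the shortest body read, and Sox11, at 13 bp, fell outside.

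5hmC is made by the Tet enzymes from 5-methylcytosine, the methyl mark that DNA methyltransferases place on CpG sites. CpG-rich promoters of developmental regulators carry little methylation in most cells, and in stem cells many of them are held silent by Polycomb complexes, at which Tet1 is also found. The families belong to several classes of DNA-binding protein. Pax proteins carry the paired domain, Lhx, Six-family, Nkx, Dlx and Irx proteins carry homeodomains, Fox proteins the forkhead domain and Sox proteins the HMG box. Most members pattern the embryo and are used in a few organs, while several Fox and Sox genes, such as Foxo3 and Foxp1, act in many adult tissues.

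The libraries came from a chemical pull-down in which 5hmC was given a modified glucose, coupled to biotin and captured. Each value is the FPKM of a region, that is, reads scaled to the length of the region and to the depth of the library. The 12 libraries form 7 groups: 2 of ESC (EB5 line, 129/Ola strain, grown with LIF), 2 each of heart and of liver from newborn mice of day 1 to 2 (P1), 2 each of heart and of liver from adults of 8 weeks (W8), and 1 each of heart and liver from embryonic day 14 (E14). The tissues were of C57BL6/j mice and hold many cell types, so a lower level in fewer cells and a lower level per cell cannot be told apart. Strain, and growth in culture, go with ESC against tissue throughout. Sequencing was paired-end with 75 bp reads for ESC and P1 and single-end with 50 bp reads for E14 and W8, so read format goes with age and with W8 against ESC. Whether the replicates are separate animals or cultures is not given, so the p-values rest on a spread between libraries that may be technical only.

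Depth was uneven, and the members' promoters were thinly covered. The median member promoter, a window of 4 kb, held 8 and 14.5 reads in the ESC libraries and 1 to 4 reads in the P1 libraries. W8 heart replicate 2 stood apart: 1 promoter read was worth about 0.767 FPKM there, and 65 of 88 member promoters and 35 of 87 member bodies were listed at 0. Results are therefore also given without it. As a check of the tissue labels, bodies of 8 of 8 cardiomyocyte markers were higher in heart at W8 and 3 of 8 at P1, and those of 4 of 7 hepatocyte markers were lower in heart at each age (limma, adjusted p below 0.05). The adult hearts differed here: hepatocyte markers summed to 2.73 FPKM in replicate 1 and 8.185 in replicate 2. In replicate 2 Alb (1.57) and Ttr (3.44) were above both adult liver libraries (0.279 and 0.324, 0.781 and 0.784). Apob, Ass1, Cps1, Hnf4a and Serpina1a were below both. The cause was not tested. Bodies of the 4 measured markers of pluripotent cells summed to 3.07 to 3.11 FPKM in ESC and to 1.17 to 5.00 in the tissues. Their sum thus does not tell the stem cells apart. A sum can hide markers that differ in opposite directions, so it does not show whether single markers do.

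Promoter sequences of 3 members are shown because the data on these genes lie at both ends of the contrast with ESC and because the distance between start and body in the deposited table places their start where RefSeq has it. Pax7, a regulator of muscle satellite cells and neural crest, and Nkx2-1, a regulator of lung, thyroid and forebrain, were high in ESC at the promoter. Foxj3, a broadly expressed forkhead gene, was the member whose promoter lay lower in both ESC libraries than in every tissue library. Each run is 300 bases from RefSeq (GRCm38.p6), from 250 bases before the start to 50 after it, written 5′ to 3′ on the gene's own strand, and capitals mark CpG sites, the letters CG.
Pax7 (chr4:139832919-139833218, minus strand): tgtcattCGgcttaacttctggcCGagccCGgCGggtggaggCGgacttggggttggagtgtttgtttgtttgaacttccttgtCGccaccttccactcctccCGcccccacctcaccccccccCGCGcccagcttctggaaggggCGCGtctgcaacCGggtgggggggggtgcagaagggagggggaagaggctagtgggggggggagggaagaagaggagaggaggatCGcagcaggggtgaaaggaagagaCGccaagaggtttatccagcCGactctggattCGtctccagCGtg
Nkx2-1 (chr12:56536859-56537158, minus strand): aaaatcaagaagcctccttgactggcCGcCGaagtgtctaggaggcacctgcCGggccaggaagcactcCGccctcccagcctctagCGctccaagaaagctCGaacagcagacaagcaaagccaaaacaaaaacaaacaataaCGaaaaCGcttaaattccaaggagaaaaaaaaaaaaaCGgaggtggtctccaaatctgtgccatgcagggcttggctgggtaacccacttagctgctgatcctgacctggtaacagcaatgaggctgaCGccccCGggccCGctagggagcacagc
Foxj3 (chr4:119539411-119539710, plus strand): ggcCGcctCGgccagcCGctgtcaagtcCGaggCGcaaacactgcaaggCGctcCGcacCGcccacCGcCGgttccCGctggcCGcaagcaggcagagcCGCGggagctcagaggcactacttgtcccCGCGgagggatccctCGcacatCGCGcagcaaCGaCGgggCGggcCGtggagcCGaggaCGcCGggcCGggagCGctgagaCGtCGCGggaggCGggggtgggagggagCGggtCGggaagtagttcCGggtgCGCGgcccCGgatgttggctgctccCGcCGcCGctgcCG
The Pax7 run holds 17 CpG sites, that of Nkx2-1 holds 12 and that of Foxj3 holds 42. The median over all 32851 RefSeq promoters of this length was 7 sites, and 94.6% held at least 1. Over the 9777 genes of the series with an entry the median was 19, so Pax7 and Nkx2-1 lie below it and Foxj3 above it. These counts are a description of the sequence only, since 62 of the 89 members had a promoter entry, and no comparison of the families with other genes was made.

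In the promoter windows, the median member stood higher in ESC than in any tissue library, though not every family did. The median over the 88 members was 0.992 and 0.915 FPKM in the ESC libraries and 0.231 to 0.393 in the 4 P1 libraries. At E14 it was 0.317 in heart and 0.289 in liver, while adult heart was at 0.240 and 0 and adult liver at 0.252 and 0.277, the 0 being W8 heart replicate 2. The same medians over all genes were 0.744 and 0.631 in ESC and 0.533 to 1.05 in the tissues. Members thus lay above the typical gene in both ESC libraries and below it in all 10 tissue libraries. Of the 88 member promoters, 55 had both ESC libraries above all 4 P1 libraries, against 13.5% of all genes, and 51 had both above all 10 tissue libraries, against 10.4%. Over the 9 tissue libraries other than W8 heart replicate 2 the count was 52, against 12.2%. In the opposite direction Foxj3 was the member with both ESC libraries below all 10 (6.4% of all genes).

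**Figure D1:**
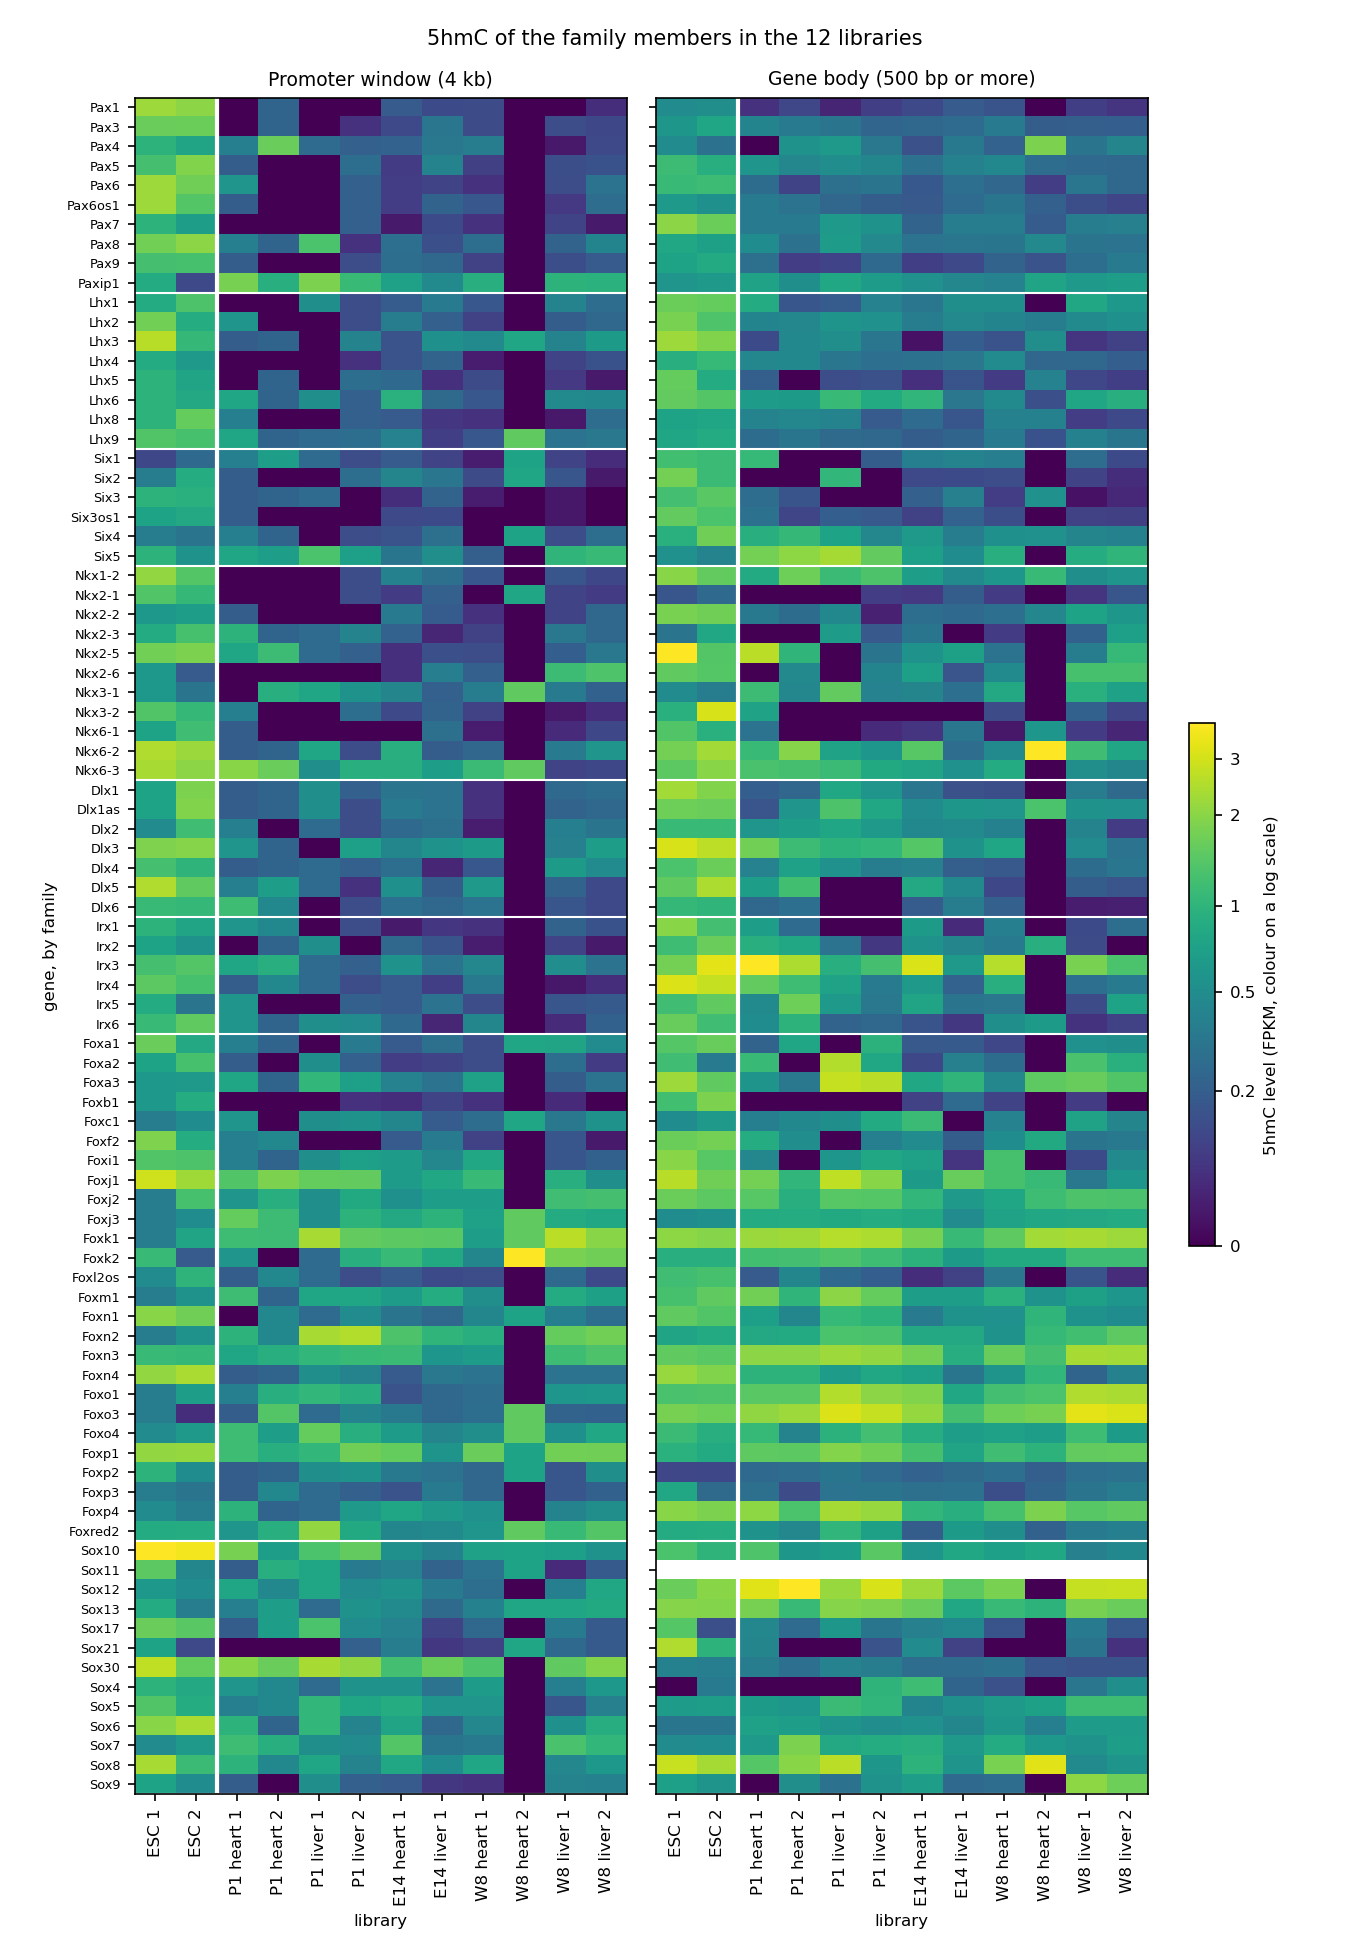
5hmC level (FPKM, colour on a log scale, clipped at the top of the bar) of 87 of the matched names with a promoter value, one per row and grouped by family, in the 12 libraries. Left, promoter windows; right, gene bodies (white: body under 500 bp). The 2 ESC columns left of the vertical line are bright for Pax, Lhx, Nkx, Dlx and Irx promoters, and in the W8 heart 2 column most promoters are at 0.

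Family by family, the Pax promoters showed the widest gap: their median was 1.43 and 1.67 FPKM in ESC and 0 to 0.196 in the 10 tissue libraries. The Nkx median was 1.36 and 1.20 in ESC and at most 0.221 in a tissue. Lhx promoters had medians of 0.992 and 0.978 in ESC and at most 0.294 in a tissue, Dlx promoters 1.18 and 1.36 against at most 0.393, and Irx promoters 1.05 and 1.01 against at most 0.589. Fox promoters, at 0.620 and 0.694 in ESC, overlapped the tissues, where the median reached 0.702 in P1 liver replicate 2. The count with both ESC libraries above all 10 tissue libraries was 7 of 8 Pax, 6 of 8 Lhx, 8 of 11 Nkx, 5 of 6 Dlx and 5 of 6 Irx promoters, but 10 of 25 Fox, 5 of 13 Sox and 1 of 5 Six-family promoters. Differences between families were not tested.

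**Figure D2:**
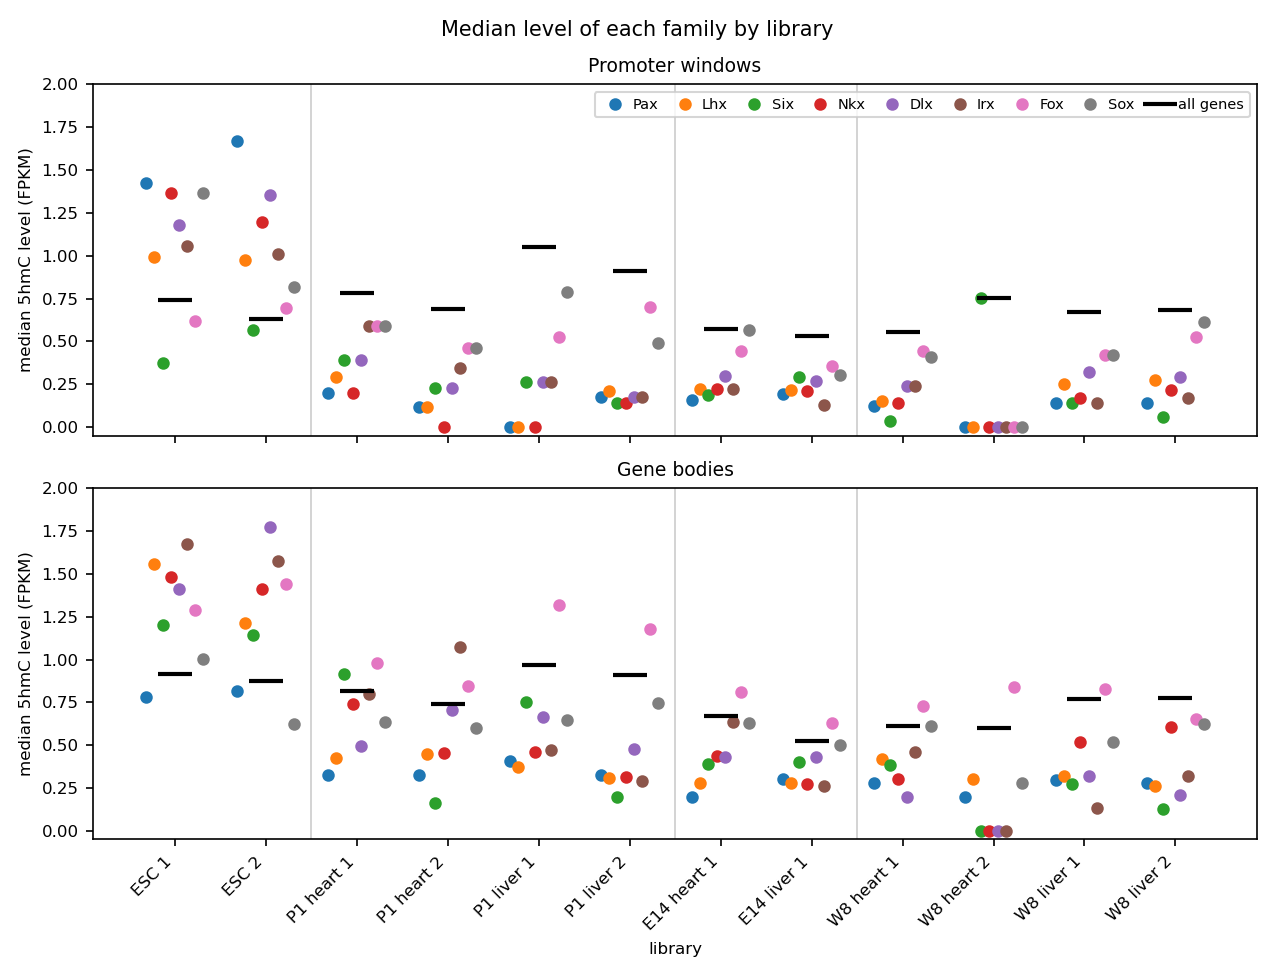
Median 5hmC level (FPKM) of each family's transcription factors in each library, for promoter windows (top) and gene bodies (bottom); the black bar is the median over all genes. In promoters the Pax, Nkx, Lhx, Dlx and Irx points lie above the bar in both ESC libraries and below it in the 10 tissue libraries, and Fox points lie nearer the bar in ESC.

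Single promoters show how few reads carry this. The Pax7 window (chr4:139387446-139391445, mm9) was at 0.992 and 0.694 FPKM in ESC. Heart libraries were at 0.031 (E14), 0 and 0 (P1) and 0.070 and 0 (W8), and liver libraries at 0.130 (E14), 0 and 0.211 (P1) and 0.113 and 0.030 (W8). Both ESC libraries were above every tissue library. One read was worth 0.124 and 0.0631 FPKM in the ESC libraries and 0.0702 to 0.262 in the P1 libraries, so the P1 values stand for 0 to 3 reads. The Nkx2-1 window (chr12:57635896-57639895, mm9) was at 1.36 and 1.07 FPKM in ESC. Heart libraries were at 0.093 (E14), 0 and 0 (P1) and 0 and 0.778 (W8), and liver libraries at 0.209 (E14), 0 and 0.140 (P1) and 0.112 and 0.093 (W8). The 0.778 is 1 read in W8 heart replicate 2. The mean of ESC was at least 3.83-fold that of P1 heart for Nkx2-1 and at least 2.65-fold for Pax7, with P1 heart put at a floor of 3 reads over the group. Foxj3, whose window spans chr4:119210266-119214265, was at 0.372 and 0.505 FPKM in ESC and at 0.524 to 1.57 in the 10 tissue libraries.

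Tested with limma over 13513 promoters, the 4 P1 libraries were lower than ESC at 6 of 88 member promoters and higher at 0, with 43 at an unadjusted p under 0.05. Over all genes 0.222% were lower and 0.577% higher. The 6 were Pax1, which patterns the sclerotome (log2 difference -4.41 ± 0.81, SE, limma adjusted p = 0.0294), Nkx1-2 (-4.24 ± 0.83), Nkx6-1 of pancreas and motor neuron progenitors (-3.34 ± 0.72), Foxb1 of the brain (-3.25 ± 0.64), Lhx4 of the pituitary (-3.25 ± 0.67) and the noncoding Six3os1 (-3.09 ± 0.67). Pax1 was at 2.23 and 2.02 FPKM in ESC, and at P1 the heart libraries were at 0 and 0.230 and both liver libraries at 0. Neither ESC library overlapped P1, nor any other tissue library, the highest being 0.230. Pax7 (-3.15 ± 0.73, adjusted p = 0.0607), Nkx2-1 (-3.76 ± 0.94, adjusted p = 0.0715) and Foxj3 (1.07 ± 0.53, adjusted p = 0.331) did not pass in this limma fit.

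The median log2 difference over the 88 promoters was -1.75, against 0.18 over all genes, and stays so with Nkx2-6, listed at 0 in all 4 P1 libraries, at its bound. It was -3.38 for Pax, -2.88 for Lhx, -2.79 for Nkx, -1.98 for Dlx, -1.78 for Irx, -0.94 for the Six-family genes, -0.90 for Sox and -0.47 for Fox. All 8 Pax, 8 Lhx, 11 Nkx, 6 Dlx and 6 Irx promoters had differences below 0, as did 16 of 25 Fox promoters. The number that passed moved with the libraries used. Without W8 heart replicate 2, which enters only through the shared spread, 31 members were lower and 2 higher (3.73% and 9.72% of all genes), and without W8 heart replicate 1 there were 31 in all. Leaving out either ESC library, P1 heart replicate 1, either P1 liver library or either W8 liver library left 0, and leaving out P1 heart replicate 2 left 1. Median centring of the libraries left 0 members past the threshold.

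W8 tissues shared the ESC libraries with that comparison and differed from them in read format. There 3 member promoters were lower and 0 higher, where 0.185% of all genes were lower and 0.215% higher. They were Pax1 (-4.32 ± 0.81), Six3os1 (-3.44 ± 0.67) and Sox10, a neural crest regulator (-2.49 ± 0.46, limma adjusted p = 0.0410). Sox10 was at 4.71 and 3.66 FPKM in ESC. Adult heart was at 0.726 and 0.756 and adult liver at 0.700 and 0.556, and the P1 libraries ran from 0.692 to 1.77. Both ESC values were above all tissue values, the lowest of which was 0.402 in E14 liver. The median over members was -2.15, and -0.26 over all genes. Without W8 heart replicate 2 the comparison gave 18 members lower and 0 higher (4.42% and 2.36% of all genes), without W8 heart replicate 1 it gave 56, and without either ESC, P1 liver or W8 liver library it gave 0.

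Gene bodies gave the same order of levels with more reads behind it, but the families split. The median over the 87 member bodies was 1.27 and 1.23 FPKM in ESC. In heart it was 0.491 (E14), 0.581 and 0.463 (P1) and 0.413 and 0.210 (W8), and in liver 0.380 (E14), 0.622 and 0.471 (P1) and 0.378 and 0.440 (W8). Over all genes the median was 0.915 and 0.874 in ESC and 0.522 to 0.969 in the tissues. In 48 of 87 members both ESC libraries were above all 4 P1 libraries, against 21.7% of all genes, and in 45 both were above all 10 tissue libraries, against 16.9%. The count was again 45 over the 9 tissue libraries other than W8 heart replicate 2 (18.4% of all genes). These 45 held 8 of 8 Lhx, 6 of 6 Dlx and 7 of 8 Pax bodies, 4 of 6 Irx, 3 of 5 Six-family and 5 of 11 Nkx bodies, but 7 of 25 Fox and 1 of 12 Sox bodies. In 37 members, against 4.39% of all genes, both the body and the promoter window had this order. Foxp2, Sox6 and Sox7 had both ESC libraries below all 10 tissue libraries, against 4.42% of all genes.

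With limma over 13470 bodies, P1 tissues were lower than ESC at 28 of 87 member bodies and higher at 6, and 53 did not pass. Over all genes 7.28% were lower and 9.68% higher. The median member difference was -0.96 on the log2 scale, against -0.02 over all genes. Leaving out either ESC library left 0 members past the threshold (37 and 36 had an unadjusted p under 0.05). Leaving out W8 heart replicate 2 gave 40 lower and 10 higher (16.9% and 18% of all genes), and leaving out W8 heart replicate 1 gave 50 in all. Without P1 heart replicate 2 there were 21 in all, without P1 liver replicate 1 there were 20, without P1 liver replicate 2 there were 21, and without either W8 liver library 17.

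Members that specify brain, limb, eye, kidney or skeletal muscle made up much of the lower group. Of the 18 measured members of that list, 12 were lower in P1 tissues, 0 were higher and 6 did not pass, with a median of -1.99. Bodies of 3 neuron markers moved the same way in sum, from 2.35 to 2.41 FPKM in ESC to 0.775 to 1.70 in the tissues. None was at 0, and 1 of 3 was lower in P1 tissues by the test. The markers did not move alike. Tubb3 had the highest values in ESC (1.67 and 1.85). Syt1 was at 0.332 and 0.315 in ESC and higher in P1 heart, at 0.439 and 0.438. Snap25 overlapped between ESC and P1 heart. The part of neurons in the result was not tested. Lhx2, a forebrain, eye and limb regulator (body chr2:38208828-38225253, mm9), was at 1.81 and 1.35 FPKM in ESC. At P1 its heart libraries were at 0.430 and 0.449 and its liver libraries at 0.574 and 0.547. In the other tissue libraries it lay between 0.368 and 0.534. Every tissue library was below both ESC libraries, and the 10 tissue values were close to each other (log2 difference -1.52 ± 0.16, SE, limma adjusted p = 0.00521). Lhx2 stands in the liver and endoderm list, since it is also known from liver stellate cells.

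Pax7 (body chr4:139292977-139387445, mm9) was at 2.00 and 1.65 FPKM in ESC. Heart libraries were at 0.223 (E14), 0.366 and 0.361 (P1) and 0.372 and 0.194 (W8), and liver libraries at 0.381 (E14), 0.622 and 0.565 (P1) and 0.375 and 0.396 (W8). ESC were above all tissue libraries, the highest of which were those of P1 liver (-1.80 ± 0.22, limma adjusted p = 0.00694). Pax6, the regulator of eye and forebrain, was at 1.12 and 1.16 FPKM in ESC and at 0.096 to 0.325 in the tissues (-1.97 ± 0.32). Among other Pax genes, Pax1, Pax9, Pax5 of B cells and Pax3 of neural crest and muscle were also lower, by -1.91, -1.82, -0.96 and -0.93. Pax4 and Pax8 did not pass.

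Six3, a forebrain and eye regulator (body chr17:86014948-86026333, mm9), was at 1.22 and 1.46 FPKM in ESC. Heart libraries were at 0.211 (E14), 0.276 and 0.162 (P1) and 0.097 and 0.546 (W8), and liver libraries at 0.402 (E14), 0 and 0 (P1) and 0.020 and 0.054 (W8). No tissue library reached ESC (-3.27 ± 0.48), and ESC were at least 23.0-fold above P1 liver, the floor being 3 reads over the group. Six3os1, whose body overlaps that of Six3 and cannot be read apart from it over the shared stretch, was lower by -2.50.

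Foxb1, a forkhead gene of the brain, was listed at 0 in all 4 P1 libraries. It was at 1.21 and 1.85 FPKM in ESC, which puts the P1 tissues at least 4.30-fold lower, the floor being 3 reads over the 4 libraries. The fitted difference of -4.40 ± 0.45 depends on the pseudocount. With members listed at 0 in P1 put at their bounds, the median over the members is the same.

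Among the Dlx genes, which pattern forebrain, jaw and limb, Dlx5, Dlx6 and Dlx1 were lower (-2.88, -2.82 and -2.19). Irx1 and Irx6 were lower among the Irx genes, Lhx5, Lhx3, Lhx9, Lhx4 and Lhx8 besides Lhx2 among the Lhx genes, and Nkx3-2, Nkx6-1, Nkx2-2 and Nkx2-1 among the Nkx genes, and Sox21 was the one Sox gene. The 6 Dlx, 6 Irx, 8 Lhx and 8 Pax bodies all had differences below 0, with family medians of -1.81, -1.58, -1.45 and -1.38. Neighbours are not independent: 24 members lie in 15 pairs within 200 kb of each other, among them Dlx1 and Dlx2, Dlx5 and Dlx6, and Six2 and Six3.

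In the fit to all 12 libraries, the 6 members higher in P1 tissues were Fox and Sox genes. They were Foxp2 (0.85 ± 0.16), Sox6 (0.81 ± 0.18), Foxp1 (0.81 ± 0.13), Foxj3 (0.66 ± 0.12), Foxo3 (0.54 ± 0.14) and Foxk2 (0.41 ± 0.11). Foxp1, a forkhead repressor of heart, blood and lung development (body chr6:98875332-99214495, mm9), was at 0.953 and 0.860 FPKM in ESC. Heart libraries were at 1.27 (E14), 1.50 and 1.48 (P1) and 1.20 and 0.987 (W8), and liver libraries at 0.761 (E14), 1.92 and 1.73 (P1) and 1.55 and 1.57 (W8). E14 liver was the tissue library that lay below ESC (P1 tissues against ESC, limma adjusted p = 0.0111). Sox6, an HMG-box gene of muscle, cartilage and red cells, was at 0.322 and 0.317 FPKM in ESC and 0.391 to 0.726 in the tissues, with no overlap. Of the 9 members listed as broadly expressed, 4 were higher, 0 were lower and 5 did not pass, with a median of 0.41. The other 2, Foxp1 and Foxo3, an effector of insulin signalling, stand in the liver and endoderm list, in which 2 of 13 were higher and 4 lower. Of 7 measured members of the heart list 0 passed, with a median of -0.97 (Foxc2 and Foxh1 were not analysed here).

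**Figure D3:**
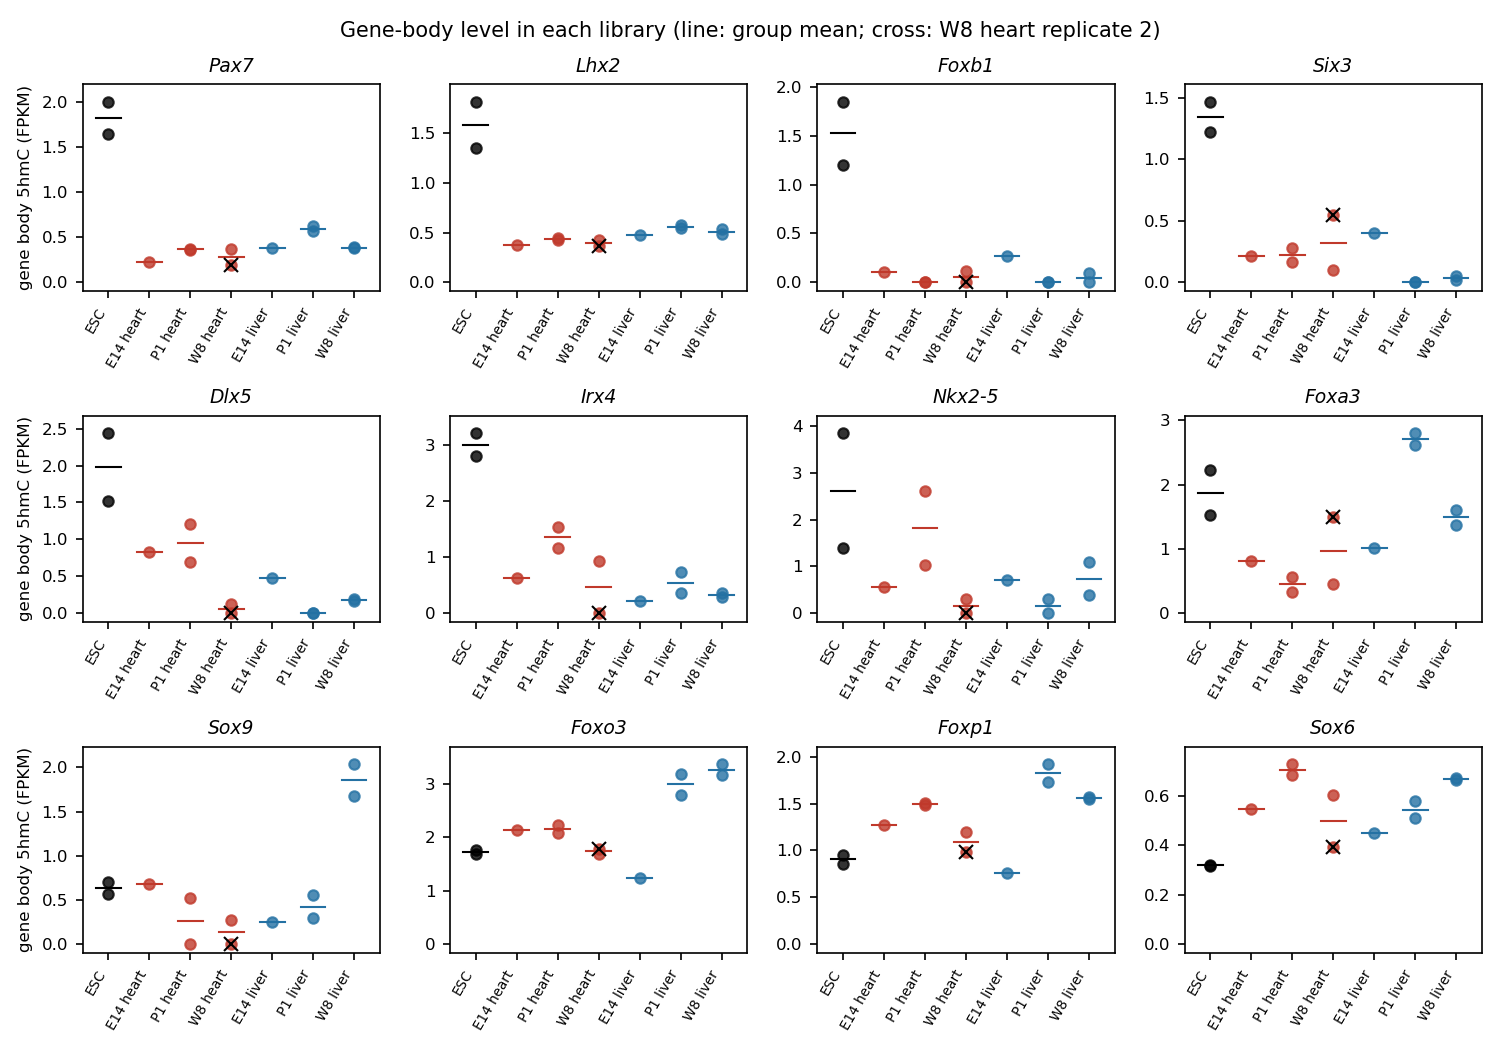
Gene-body 5hmC level (FPKM) of 12 members in every library, one point per library, with the group mean as a line; black ESC, red heart, blue liver, and a cross on W8 heart replicate 2. Pax7, Lhx2, Foxb1 and Six3 are high in both ESC libraries and low in every tissue, Sox6 lies lower in ESC than in any tissue library, and Foxa3 is high in P1 liver (2.79 and 2.62) and low in P1 heart (0.570 and 0.335).

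Among the members that passed in the fit to all 12 libraries, the direction of the difference went with body length. Some short bodies that did not pass in that fit also had differences above 0. Six5 (1802 bp) had the largest difference of all members, 1.83, and Sox12 (2436 bp) had 0.76. Without W8 heart replicate 2 both were called higher, so the split by length does not hold there. The 6 higher members had bodies of 51.2 to 565 kb (median 216 kb), and the 28 lower ones of 1.06 to 178 kb (median 9.48 kb). Among members of 500 bp to 10 kb 14 of 50 were lower and 0 higher, with a median of -1.58, where all 3111 genes of that length gave 184 lower and 87 higher and a median of -0.26. At 10 to 50 kb 10 of 21 members were lower and 0 higher (median -0.86, against -0.07 over all such genes). At 50 kb or more 6 of 16 members were higher and 4 lower (median 0.34, against 0.17). Over genes of all lengths 7.28% were lower and 9.68% higher. Shares within these longer classes are not given here, so a comparison at like length rests on the medians. The 4 long genes that were lower were Pax3, Pax5, Pax7 and Pax6os1. Spearman's rho of the difference with length was 0.40 over the 87 members and 0.25 over 13470 genes. The points share libraries, and longer bodies hold more reads. The part of length in the result was not tested.

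**Figure D4:**
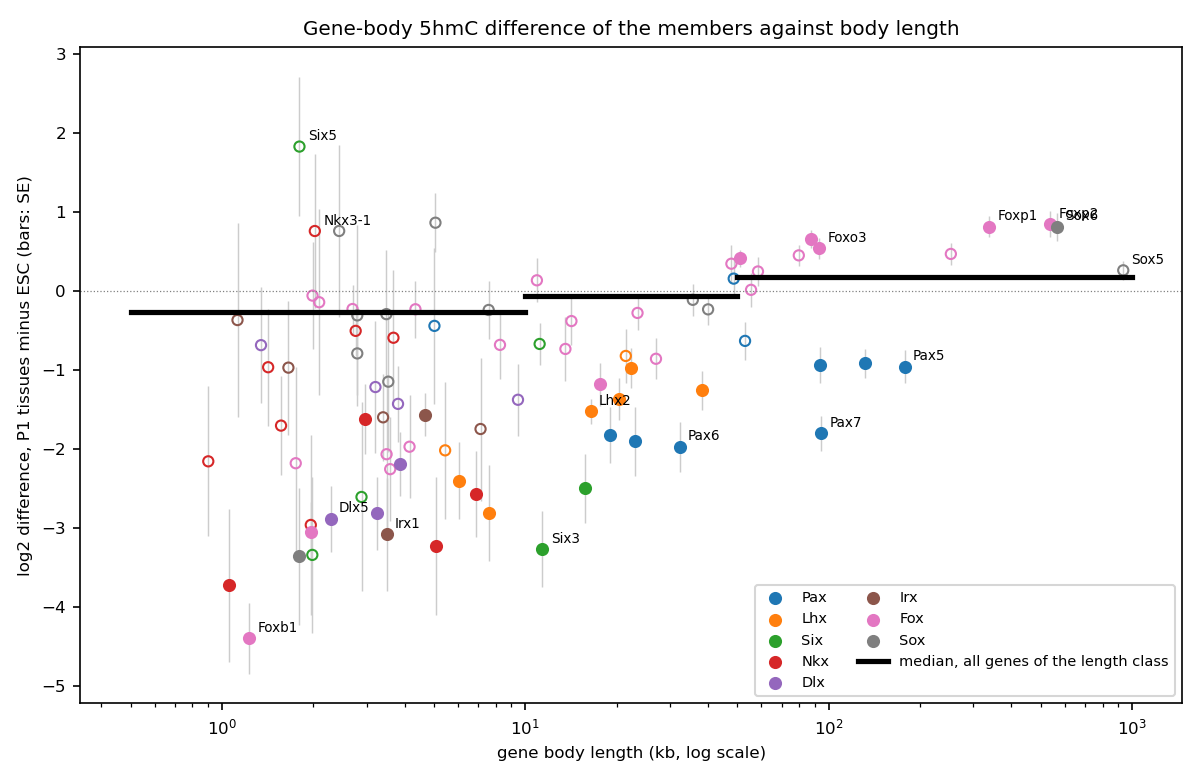
Log2 difference of gene-body 5hmC, P1 tissues minus ESC (bars: SE), against body length (kb, log scale) for the 87 members, coloured by family; filled points passed the limma test at an adjusted p of 0.05, and black lines are the medians of all genes in 3 length classes. Members under 50 kb lie mostly below the lines, and the 6 filled points above 0 have bodies of 51.2 kb or more.

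Set beside the same test in other genes, the families were not alone. In a list of 49 measured developmental transcription factors of other families, such as Tbx and Gata genes, 12 bodies (24.5%) were lower in P1 tissues. Another 5 (10.2%) were higher, and the median was -0.94. Over all genes 7.28% were lower and 9.68% higher, so the higher share was near that of all genes. Promoter differences were below 0 in 48 of 49, with a median of -1.83, and 0 passed. Over all genes 5791 of 13513 promoter differences were below 0. In 24 measured genes of the Tet enzymes and Polycomb complexes 2 bodies were lower and 2 higher (8.33% each), with a median of -0.08. Those shares are near the ones over all genes. The promoter median of these genes was 0.33, and 0 passed.

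The fall at promoters relative to bodies was tested as 1 difference per gene. The median of the promoter change minus the body change was -0.44 over 87 members and 0.21 over all genes. It was below 0 in 8 of 8 Pax genes (median -1.58), 7 of 8 Lhx genes (-0.67) and 10 of 12 Sox genes (-0.55), and the Fox median was 0.08. With limma 0 members passed (13 at an unadjusted p under 0.05), against 0.00744% of all genes higher and 0% lower. Without W8 heart replicate 2, 5 were lower (1.26% of all genes lower and 3.87% higher), and without W8 heart replicate 1 there were 6 in all.

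W8 tissues against ESC, which share the ESC libraries and differ in read format, had 40 of 87 member bodies lower and 5 higher (limma). Over all genes 21.6% were lower and 6.59% higher, with a median of -0.30 against -1.40 in the members. Lower were 5 of 6 Dlx, 7 of 8 Lhx, 7 of 8 Pax, 4 of 6 Irx, 3 of 5 Six-family, 2 of 11 Nkx, 6 of 25 Fox and 2 of 12 Sox transcription factors. Lhx2 and Pax7 had differences of -1.64 ± 0.16 and -2.24 ± 0.22, each with an adjusted p = 0.00300. Foxp2, Sox6, Foxj3, Foxp1 and Foxo3 were higher, by 0.81, 0.71, 0.56, 0.49 and 0.45. Median centring, which takes out a shift between libraries, gave 29 lower and 9 higher. Without W8 heart replicate 2 there were 43 lower and 8 higher (31.4% and 10.2% of all genes). Without ESC replicate 1 there were 6 past the threshold, without ESC replicate 2 there were 13, without W8 liver replicate 1 there were 25 and without W8 liver replicate 2 there were 20.

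Heart against liver was asked next, first in newborn tissues read in the same format. Dlx5, a homeodomain gene of limb, jaw and bone, was at 0.688 and 1.21 FPKM in P1 heart and 0 in both P1 liver libraries. At E14 it was at 0.832 in heart and 0.479 in liver, and in adults at 0.123 and 0 in heart and 0.196 and 0.163 in liver. The mean of P1 heart was 3.26-fold a floor of 3 reads over the P1 liver group (fitted log2 difference 3.73 ± 0.48, limma adjusted p = 0.0348). This ratio takes the heart values as exact. The body is 2281 bp long, and 1 read in a 4 kb promoter window was worth 0.196 and 0.231 FPKM in P1 heart. Each heart value thus stands for only a few reads. The adult libraries did not show heart above liver. Dlx5 was the member that passed of 87, as higher; 0.356% of all genes were higher and 1.94% lower. It did not pass with a replicate left out from any of ESC, P1 heart, P1 liver and W8 liver. The median gene differed by -0.23 at P1, and the median member by -0.03.

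The Irx genes, homeodomain genes of heart ventricle, conduction system and nervous system, leaned to heart as a family in bodies at P1. In adults, without W8 heart replicate 2, 5 of 6 body differences were above 0 and 1 below. Promoter differences in adults were then 3 above 0 and 3 below (median -0.05). Irx3, which acts in the conduction system, was at 4.18 and 2.46 FPKM in newborn heart against 0.931 and 1.25 in newborn liver, and at E14 at 3.12 in heart against 0.628 in liver. Adult values were 2.57 and 0 in heart and 1.80 and 1.32 in liver, the 0 being W8 heart replicate 2. Irx4, a regulator of the ventricle, had heart libraries at 0.623 (E14), 1.54 and 1.17 (P1) and 0.928 and 0 (W8), and liver libraries at 0.218 (E14), 0.736 and 0.355 (P1) and 0.283 and 0.365 (W8). Heart was above liver in every library of both genes other than W8 heart replicate 2.

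At P1 all 6 Irx differences were above 0 (median 1.43), and 0 passed. Without W8 heart replicate 2, which carries no P1 tissue, 4 of 6 passed as higher in P1 heart: Irx1, Irx3, Irx4 and Irx6, with fitted differences of 2.76, 1.51, 1.26 and 1.35. Their adjusted p-values in limma were then 0.0136, 0.0400, 0.0370 and 0.0290, and over all alternatives they ran from 0.0136 to 0.348, 0.0391 to 0.781, 0.0370 to 0.776 and 0.0290 to 0.289. In that fit 7 members were higher and 9 lower, where 5.89% of all genes were higher and 16.6% lower. Leaving out W8 heart replicate 1 in its place also gave 16 members in all. Markers of erythroid and blood cells summed to 4.43 to 5.45 FPKM over 5 bodies in P1 heart, against 6.53 to 7.27 in P1 liver, with 0 of 5 past the test and none at 0. Of the endothelial and fibroblast markers, 0 of 5 and 0 of 4 passed at P1. The part of these cells in the result was not tested.

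On the liver side at P1, Nkx2-3 had the largest fitted difference (-2.54 ± 0.72) and did not pass. Next came Foxa3, a forkhead pioneer factor of liver. Its body was at 2.79 and 2.62 FPKM in P1 liver and 0.570 and 0.335 in P1 heart, with no overlap. It was at 1.01 in E14 liver and 0.810 in E14 heart, and at 1.61 and 1.37 in adult liver against 0.450 and 1.50 in adult heart, where the replicates disagreed. The P1 difference was -2.44 ± 0.50 and did not pass (limma adjusted p = 0.0572, and 0.00615 to 0.269 over the alternatives). Foxa1 and Foxa2, its relatives, were uneven between replicates: Foxa2 had 2.51 and 0.806 FPKM in P1 liver, and 1.13 and 0 in P1 heart. Nkx2-5, the homeodomain factor of cardiac muscle, was at 2.61 and 1.02 FPKM in newborn heart and at 0 and 0.312 in newborn liver. Adult heart was at 0.306 and 0, and adult liver at 0.380 and 1.09. Its P1 difference of 3.34 ± 1.09 did not pass (adjusted p = 0.126 in limma), and its body of 902 bp is the shortest read.

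In adults, 7 of 87 member bodies were higher in heart than in liver and 10 lower (limma), where 9.5% of all genes were higher and 21.4% lower and the median gene differed by -0.32. Neither share of the members was above that of all genes, so the counts show no excess of members. Higher were Irx2 (2.41 ± 0.64), Sox8 (2.08 ± 0.61), Irx6 (2.02 ± 0.31, adjusted p = 0.00703), Lhx8, Foxj1, Foxn4 and the noncoding Pax6os1. In adults Irx6 had 0.531 and 0.648 FPKM in heart, and 0.073 and 0.105 in liver. Its P1 values of 0.505 and 0.988 in heart and 0.225 and 0.241 in liver, and its E14 values of 0.162 and 0.082, had the same order. For Irx2 the adult values were 0.365 and 0.915 FPKM (heart) and 0.133 and 0 (liver).

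Of those lower in adult heart, the insulin-signalling factors Foxo1 (-0.90 ± 0.15) and Foxo3 (-0.89 ± 0.16) were joined by Sox5, Foxn3, Foxp1 and Foxk2 (-0.75, -0.71, -0.49 and -0.46) and by Sox9, Dlx1 and Lhx6. Adult Foxo1 values were 1.23 and 1.31 FPKM in heart, against 2.46 and 2.41 in liver, a clear separation with close replicates. At E14, with 1 library a tissue, the order was the opposite. Foxo1 was then at 1.88 in heart and 0.810 in liver, and Foxo3 at 2.13 and 1.24. These are log2 differences of 1.14 and 0.75, where the median gene was itself 0.25 higher in E14 heart. Sox9, a factor of bile duct and cartilage, had adult values of 2.03 and 1.67 FPKM in liver, against 0.274 and 0 in heart (-3.57 ± 1.03). In P1 it was at 0.296 and 0.556 in liver and 0 and 0.521 in heart, which overlap, and at E14 it was higher in heart (0.681) than in liver (0.255).

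The adult result leaned on W8 heart replicate 2 for some members. Without it 9 members were higher and 10 lower (12.9% and 27% of all genes); Foxa3 then differed by -1.57 and Irx4 by 1.34, in place of -0.78 and -0.54. Sox9, Irx2, Sox8, Foxj1, Foxn4, Foxp1 and Dlx1 did not pass in that fit. Leaving out either W8 liver library left 0 members, either ESC library 8, P1 heart libraries 11 and P1 liver libraries 10, and leaving out W8 heart replicate 1 gave 40. Median centring, which takes out the shift of all genes, gave 9 higher and 3 lower, with Foxo1 and Foxo3 among the lower ones, while Sox5, Sox9, Foxn3, Foxp1, Foxk2, Dlx1 and Lhx6 did not pass then. Array weights, or a fit to the W8 libraries alone, left 0. Markers of other cells moved with tissue: 3 of 5 endothelial and 2 of 4 fibroblast marker bodies were higher in W8 heart. The endothelial markers summed to 4.07 to 4.54 FPKM in adult heart, against 2.96 to 2.97 in adult liver, the fibroblast markers to 2.53 to 2.66 and 1.01 to 1.04, and none of these markers was at 0. Erythroid and blood markers summed to 1.71 to 2.63 FPKM in adult heart, with Klf1 and Epor at 0 in replicate 2, against 3.62 to 4.31 in adult liver, and 1 of 5 passed, as higher in heart. Their part in the result was not tested.

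Leaving out W8 heart replicate 2, heart libraries were above liver at E14, P1 and W8 in 10 members, against 9.15% of all genes: Irx1, Irx2, Irx3, Irx4, Irx6, Dlx3, Foxf2, Foxn4, Nkx6-3 and Six4. This is 5 of the 6 Irx genes. Heart was below liver at all 3 ages in Foxa3, Foxp3, Lhx2, Pax6, Pax7 and Sox5, against 12.1%. At E14, with 1 library a tissue and no test, 16 of 87 bodies were at least 2-fold higher in heart, against 7.9% of all genes, and 6 at least 2-fold lower, against 2.67%. Both counts for E14 hold short bodies with few reads.

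**Figure D5:**
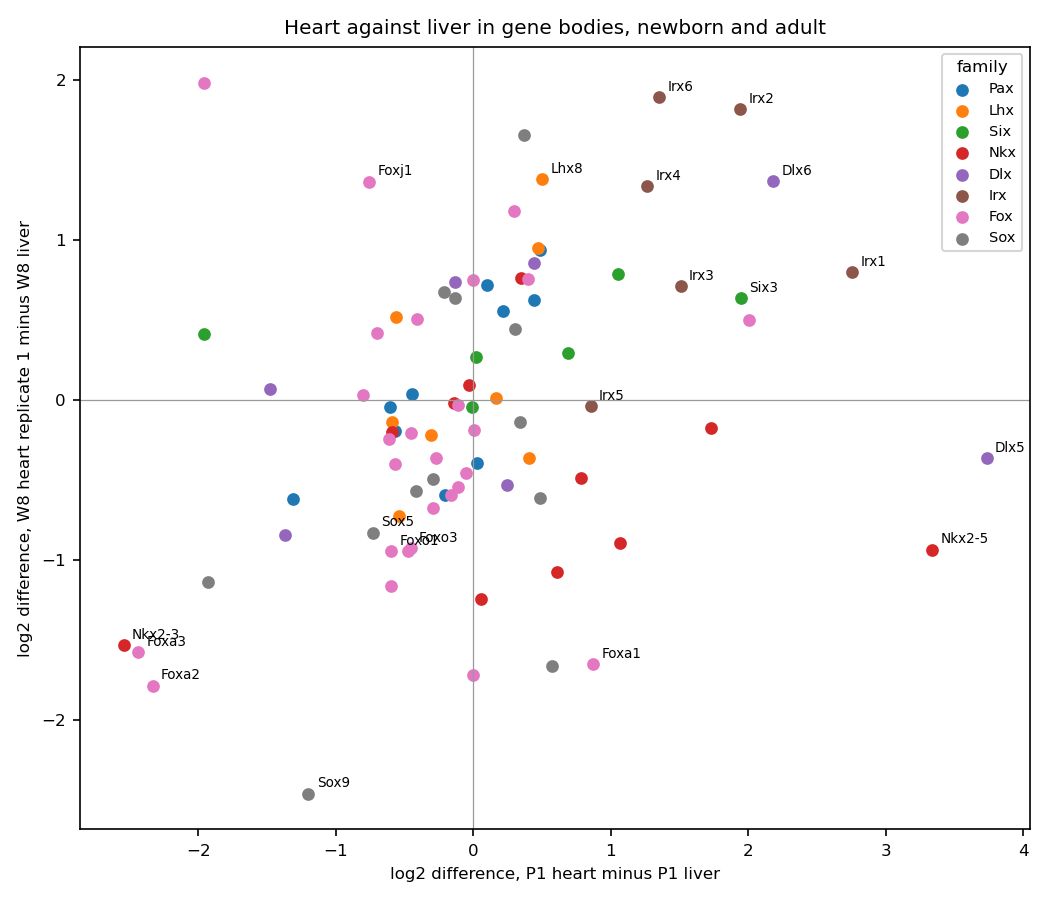
Log2 difference of gene-body 5hmC between heart and liver for the 87 members, at P1 (horizontal; 2 libraries a tissue) and at W8 without heart replicate 2 (vertical; 1 heart and 2 liver libraries), coloured by family. The 6 Irx points lie right of 0 and 5 of them above it, and Foxa3 lies at the lower left.

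At promoters, heart and liver did not separate at this depth. With limma 0 of 88 members passed at P1 and 0 at W8, with 5 and 13 at an unadjusted p under 0.05; over all genes 0.0074% were lower and 0% higher at P1, and 0.0074% higher and 0% lower at W8. The Nkx2-5 window had 0.785 and 1.15 FPKM in newborn heart, 0.262 and 0.211 in newborn liver, and 1.74 and 1.83 in ESC. The change of the heart-liver difference between P1 and W8 in bodies, tested as an interaction, also had 0 members past the threshold, with 10 at an unadjusted p under 0.05 (over all genes 0.00742% higher and 0.00742% lower); leaving out W8 heart replicate 1 gave 24. The members with the largest change were Nkx2-5 (-5.45 ± 1.55, limma adjusted p = 0.152) and Dlx5 (-4.80 ± 0.68, adjusted p = 0.0895). Read format differs between the 2 ages. A format effect alike in both tissues cancels in this contrast, and one that differs by tissue does not.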

How the data were processed

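The 12 libraries measure 5hmC in ESC and in heart and liver of the mouse. Per the labels' protocols, 5hmC was glucosylated, biotinylated and captured. Reads were aligned with Bowtie2 to mm9, per the submitters' processing notes. The deposited tables give FPKM, computed by the authors, over a promoter window of 4000 bp and the gene body beyond it. A window of 2 kb on each side of the start was inferred from RefSeq gene lengths and is not stated. Low promoter values were whole reads within 0.01, with 2 sizes of read, about 1.03-fold apart, in each single-end library, where their mean was taken as 1 read. This gave the depth: 604000 to 5761520 reads over bodies, and 142772 in W8 heart replicate 2. Floors and read counts cover counting error only.

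Values were tested as log2(FPKM + pseudocount), with pseudocounts of 0.0745 (bodies) and 0.0723 (promoters), that is, 1/10 of the median over non-zero values, so changes of low genes are understated. Genes with a mean under 0.0809 or 0.0739 FPKM were left out, which removed no member. limma 3.58.1 (R 4.3.3) estimated 7 group means from the 12 libraries together (5 residual degrees of freedom, variance trend). P-values were adjusted by Benjamini and Hochberg over all genes of a comparison at 0.05. P1 and W8 tissues are the mean of heart and liver. E14 has 1 library a tissue and no test. On simulated data at P1 against ESC the body test found 34% of log2 changes of 1 and 80% of changes of 2; the promoter test found 0% and 2%. Replicates differed by more than counting error (chi-square per degree of freedom 1.04 to 1.15 in ESC and P1, 1.47 in W8 liver and 2.56 in W8 heart), so none was merged.

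Members, role lists and comparison lists were chosen with earlier results of these data known. Named are the members of the role lists and, per comparison and family, up to 3 higher and 3 lower among those that passed; other names (Pax4, Paxip1, Foxred2, the noncoding transcripts, Dlx3, Foxf2, Nkx6-3, Sox30 and the like) were chosen after their values were seen. A member that these rules name is not reported here by name and is kept in the counts. Alternatives were another pseudocount, no filter, median centring, a replicate block, array weights, a fit to the compared groups and leaving out each replicate.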

Additional observations from a re-analysis of the deposited data

How the results depend on the processing

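Values are members past the limma threshold. P1 tissues against ESC in bodies (34) gave 29 to 49 over the other settings and 0 to 50 with 1 replicate left out; W8 tissues against ESC in bodies (45) gave 6 to 59 with 1 left out. P1 heart against P1 liver in bodies (1) gave 3 with the larger pseudocount, 7 with array weights, 0 with a replicate block or the compared groups alone, and 0 to 16 with 1 left out. W8 heart against W8 liver in bodies (17) gave 0 with array weights or the compared groups alone and 0 to 40 with 1 left out. Its change from P1 (0) gave 0 to 24. P1 tissues against ESC in promoters (6) gave 32 with the larger pseudocount, 0 after median centring, 43 with array weights, 15 with the compared groups alone and 0 to 33 with 1 left out. W8 tissues against ESC in promoters (3) gave 46, 0, 34 and 0 under the same settings and 0 to 56 with 1 left out. W8 heart against W8 liver in promoters (0) gave 0 to 28. Promoter relative to body (0) gave 3 with the larger pseudocount, 11 with array weights and 0 to 6 with 1 left out. The cause was not tested. Array weights are equal within a group of 2 by construction. Among the fits with 1 library left out, the highest counts came without a W8 heart replicate: leaving out replicate 1 or replicate 2 gave 50 and 50 for P1 tissues against ESC in bodies and 16 and 16 for P1 heart against P1 liver, and in comparisons that hold W8 tissue the highest were without replicate 1, which leaves the shallow library alone.

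Whether replicate numbers pair the samples is not given. Deviations of same-numbered libraries correlated across genes at -0.020 to 0.033. Replicates of ESC and P1 differed by little more than counting error (chi-square per degree of freedom 1.04 to 1.15). The correlations therefore cannot exclude a shared animal, litter or day. The replicate block gave 29 members for P1 tissues against ESC in bodies, 3 in promoters and 0 for P1 heart against P1 liver. Of 1392 values of 87 results that passed, 922 kept direction and side of the threshold, 470 kept direction and no longer passed, and 0 reversed. Members that did not pass are not among them, and Irx4 in W8 heart against liver turned from -0.54 to 1.34 without W8 heart replicate 2. The median member promoter held 8 and 14.5 reads in ESC and 1 to 4 in P1 libraries, which limits the precision of promoter values.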
